A study of Oryza sativa with 9 samples.

Results

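Os07g0511301 and Os07g0511400 are 2 rice loci with consecutive identifiers on chromosome 7 that were at or near 0 in wild-type panicles and expressed in the panicles of both transgenic lines of the study. They were chosen by that pattern, that is by their FPKM in the same 9 libraries, so their levels against the wild type are given as a description with no test, and the question asked here was whether the loci listed next to them changed with them. The stretch described held every row of the expression table with an identifier from Os07g0506000 to Os07g0520000, which gave 92 of the 37863 rows. Besides the pair it held 90 neighbours, 37 with lower and 53 with higher identifiers. Of the 90 neighbours, 59 averaged 1 FPKM or more across the 9 libraries and were tested, 22 were above 0 but below that mean, and 9 were at 0 in every library.

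RNA-seq was performed on young panicles of 3 genotypes, with 3 libraries each, which the labels number as biological replicates. ZH11-OE1 overexpressed GSE9, a gene studied for grain shape, from the ubiquitin promoter, which is active in most tissues. ZH11-KO1 was a CRISPR/Cas9 knockout of GSE9 in which Cas9 was driven by the ubiquitin promoter and 2 guide RNAs were used. ZH11 was the untransformed wild type, the *japonica* variety Zhonghua11, and was the background of both lines. The labels place the harvest before heading and the study's methods before anthesis. Each transgenic genotype was 1 line, so what is particular to a line cannot be told apart from what its construct did. The libraries came from bulk panicle tissue, so fewer cells of a type and less RNA per cell cannot be told apart.

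Rice locus identifiers carry the chromosome number after "Os" and rise along the chromosome, so neighbours by identifier lie near each other on the chromosome map. Neighbouring genes can share regulatory sequence and chromatin and tend to be inherited together. The table gave no gene names, and none of the 92 identifiers was matched to a name, so no member is given a role here. Levels are in FPKM, the fragments counted for a locus scaled to its length and to the size of the library, and a locus was called changed at an adjusted p under 0.05 in limma's test on log2(FPKM + 1). Fold changes are on that scale and understate the change of loci with low values.

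The 9 libraries were of similar depth, between 14227327 and 16405688 counted reads as recovered from the steps of the FPKM values, with the deepest 1.15 times the shallowest. The 10 floral MADS-box loci used as panicle markers were all above 1 FPKM in every library, and summed to between 1530 and 1800 FPKM in ZH11-OE1, 1560 and 1700 FPKM in ZH11-KO1, and 1630 and 1820 FPKM in ZH11. The 5 tapetum and pollen wall loci, which mark anthers, were also all above 1 FPKM, and their sum did not overlap between the lines and the wild type: 483 to 509 FPKM in ZH11-OE1 and 397 to 514 FPKM in ZH11-KO1, against 163 to 343 FPKM in ZH11. The part of this anther difference in the results below was not tested. The 3 Rubisco small subunit loci, a mark of green tissue, summed to 137 to 180 FPKM in ZH11-OE1, 111 to 167 FPKM in ZH11-KO1 and 140 to 222 FPKM in ZH11. The row of GSE9 itself was not tied to an identifier and was not analysed here.

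Os07g0511400, with a counted length of 713 bases, had 80.3, 89.7 and 72.5 FPKM in the ZH11-OE1 libraries and 335, 277 and 219 FPKM in the ZH11-KO1 libraries, against 1.01, 2.13 and 1.25 FPKM in the ZH11 libraries. No library of ZH11 came near any library of either line, and the 11, 23 and 14 reads of the ZH11 libraries place its level low but above 0. The means were 80.8 ± 8.60 FPKM in ZH11-OE1, 276.8 ± 58.3 FPKM in ZH11-KO1 and 1.46 ± 0.593 FPKM in ZH11 (SD, n = 3 each). Relative to ZH11, the mean of ZH11-OE1 was 55.2-fold and that of ZH11-KO1 189-fold.

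Os07g0511301, with a counted length of 300 bases, had 12.7, 10.7 and 11.4 FPKM in ZH11-OE1 and 23.1, 34.4 and 25.8 FPKM in ZH11-KO1, against 0 reads in each of the 3 ZH11 libraries. Since 0 reads allow up to 3 reads in a library, which is at most 0.662 FPKM here, the mean was at least 17.5-fold higher in ZH11-OE1 and at least 41.9-fold higher in ZH11-KO1 than in ZH11. These limits cover counting error only. The lowest library of ZH11-OE1 stood at least 16.1-fold, and that of ZH11-KO1 at least 34.9-fold, above the same floor.

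The 2 lines also differed from each other at the pair, a contrast that did not enter its choice. Every ZH11-OE1 library was below every ZH11-KO1 library for both loci. The log2 fold change of ZH11-OE1 over ZH11-KO1 was -1.75 ± 0.183 for Os07g0511400 (SE, adjusted p = 0.000411) and -1.18 ± 0.144 for Os07g0511301 (SE, adjusted p = 0.0009). Within a library, the FPKM of Os07g0511400 was 6.30, 8.41 and 6.37 times that of Os07g0511301 in ZH11-OE1 and 14.5, 8.04 and 8.48 times in ZH11-KO1. The first ZH11-KO1 library stood apart in this ratio, with the highest Os07g0511400 and the lowest Os07g0511301 value of its group.

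Of the tested neighbours, 1 was near 0 in ZH11 and expressed in both lines, as the pair was. Os07g0511100, the next tested identifier below the pair, with a counted length of 962 bases, had 1.95, 2.05 and 3.74 FPKM in ZH11-OE1 and 3.50, 2.66 and 2.48 FPKM in ZH11-KO1, against 0, 0.138 and 0.198 FPKM in ZH11. In reads this was 28, 32 and 59 in ZH11-OE1 and 54, 38 and 34 in ZH11-KO1, against 0, 2 and 3 in ZH11, so the wild type was at the edge of detection and the lines were well above it. The libraries of the lines did not overlap those of ZH11, and the lines overlapped each other. Os07g0511100 rose by a log2 change of 1.66 ± 0.197 in ZH11-OE1 (SE, adjusted p = 0.0014) and of 1.80 ± 0.197 in ZH11-KO1 (SE, adjusted p = 0.00091). From the summed reads at equal depth, the level in ZH11-OE1 was 23.1 times that in ZH11 (95% exact interval 9.62 to 72.4) and the level in ZH11-KO1 25.8 times (10.8 to 80.8), where the intervals cover counting error only. It reached the minimum mean of 1 FPKM through the lines alone, so only a row that differed could have been tested at such a low ZH11 level. Its adjusted p-values are therefore a description. Both calls held in each of the 19 alternatives that tested this locus, no filter among them. The highest adjusted p was 0.0142 in ZH11-OE1 and 0.00589 in ZH11-KO1. These alternatives reuse the same libraries and are not independent support.

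Unlike the pair, Os07g0511100 did not pass the threshold between the lines. The log2 fold change of ZH11-OE1 over ZH11-KO1 was -0.14 (95% interval -0.58 to 0.29, adjusted p = 0.624). The level of Os07g0511400 was 41.2, 43.8 and 19.4 times that of Os07g0511100 in the ZH11-OE1 libraries, and 95.7, 104 and 88.0 times in the ZH11-KO1 libraries. These ratios did not overlap between the lines.

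Between Os07g0511100 and the pair the table listed 1 more row, Os07g0511201, with a counted length of 309 bases and a mean too low to be tested. It had 0 reads in all 3 ZH11-OE1 libraries and 6, 2 and 2 reads in the ZH11-KO1 libraries, against 0 reads in all 3 ZH11 libraries. In FPKM the ZH11-KO1 values were 1.21, 0.437 and 0.455. Summed over 3 libraries this was 10 reads in ZH11-KO1 (exact Poisson 95% interval 4.8 to 18.4). ZH11-OE1 and ZH11 had 0 reads (up to 3.69 each). These intervals cover counting error only and not the spread between libraries, and the difference was not tested. The 4 consecutive identifiers from Os07g0511100 to Os07g0511400 all had reads in ZH11-KO1 and 3 of them had reads in ZH11-OE1, and in ZH11 the first 3 did not exceed 0.198 FPKM.

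**Figure D1:**
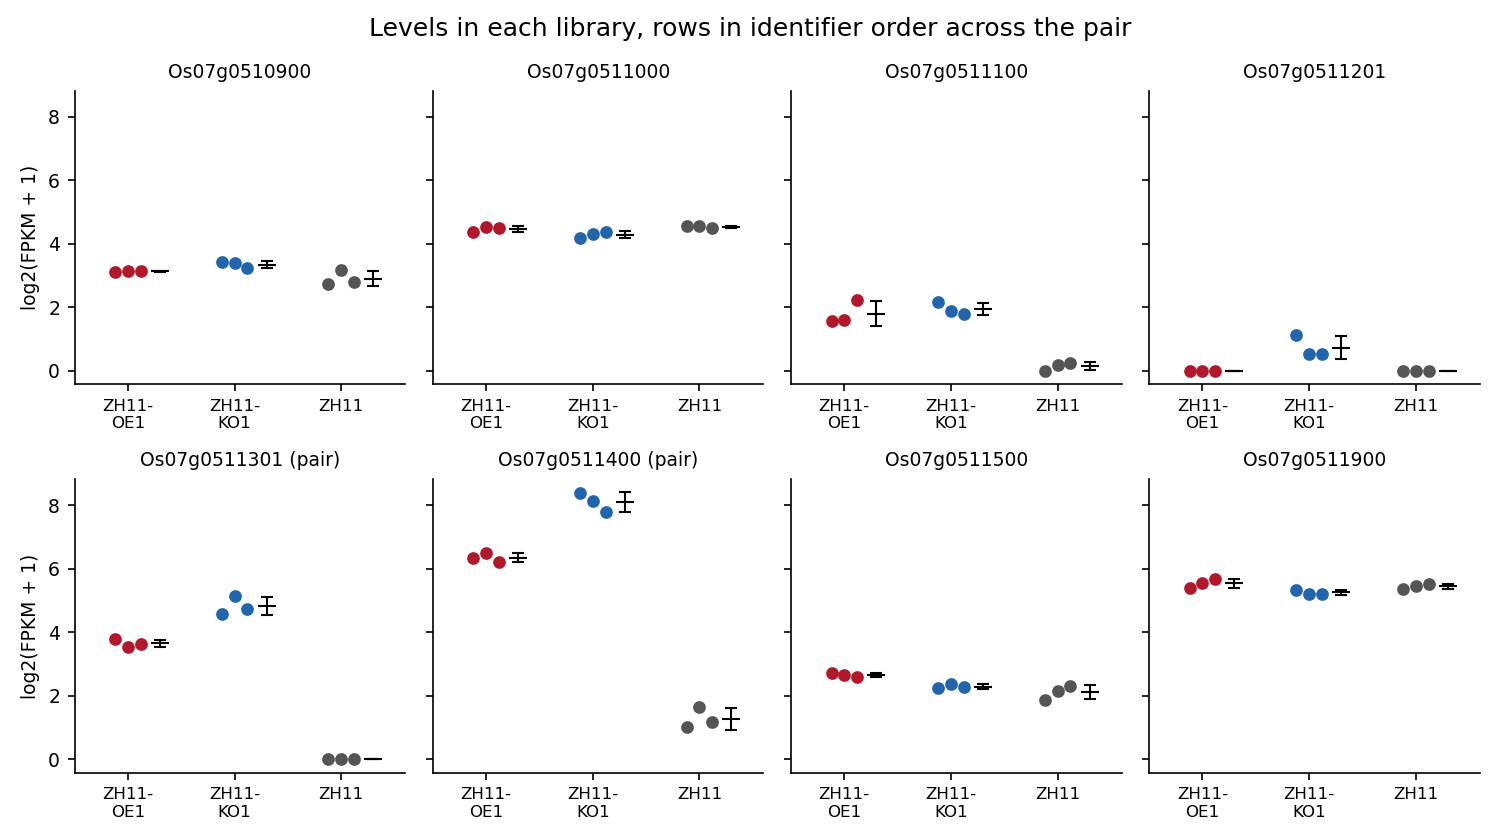
Level of 8 loci in identifier order across the pair, on the vertical axis as log2(FPKM + 1), for ZH11-OE1, ZH11-KO1 and ZH11 from left to right; points are libraries and the bar beside them is the mean with its SD (n = 3). Os07g0511301 and Os07g0511400 are high in both lines and low in ZH11, Os07g0511100 shows the same split at a lower level, Os07g0511201 is above 0 in ZH11-KO1 alone, and the outer loci lie within about 1 log2 unit across the genotypes.

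The change did not extend in the same form to the next loci on either side. Os07g0511000, the next tested locus below, had means of 21.1 ± 1.29 FPKM in ZH11-OE1, 18.5 ± 1.38 FPKM in ZH11-KO1 and 22.1 ± 0.615 FPKM in ZH11 (SD, n = 3 each). The change on the log2 scale against ZH11 was -0.06 in ZH11-OE1 (95% interval -0.25 to 0.13, adjusted p = 0.674) and -0.24 in ZH11-KO1 (-0.44 to -0.05, adjusted p = 0.111). Os07g0510900, the third tested locus below, had means of 7.76 ± 0.0728 FPKM in ZH11-OE1, 9.20 ± 0.706 FPKM in ZH11-KO1 and 6.56 ± 1.31 FPKM in ZH11 (SD, n = 3 each). On the log2 scale its change was 0.23 in ZH11-OE1 (95% interval -0.06 to 0.51, adjusted p = 0.259) and 0.44 in ZH11-KO1 (0.16 to 0.73, adjusted p = 0.0576). With voom, a limma test on the recovered reads, its rise in ZH11-KO1 passed (log2 change 0.507, adjusted p = 0.0444). The ZH11-KO1 libraries of Os07g0510900 were all above those of ZH11, and those of Os07g0511000 all below. The intervals of these 2 loci lie far below the changes of the pair.

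On the upper side, Os07g0511500, the next identifier after the pair, had 5.64, 5.30 and 4.98 FPKM in ZH11-OE1 and 3.71, 4.18 and 3.84 FPKM in ZH11-KO1, against 2.66, 3.48 and 3.94 FPKM in ZH11. The ZH11-OE1 libraries were above all others, and those of ZH11-KO1 and ZH11 overlapped. Os07g0511500 rose in ZH11-OE1 by a log2 change of 0.54 ± 0.132 (SE, adjusted p = 0.0243), and had 0.18 in ZH11-KO1 (95% interval -0.11 to 0.47, adjusted p = 0.421). The call in ZH11-OE1 was lost without ZH11-OE1 replicate 1, ZH11-OE1 replicate 2 or ZH11 replicate 1 (adjusted p = 0.0674 to 0.0848). Os07g0511900, the next one tested, had a log2 change of 0.09 in ZH11-OE1 (95% interval -0.11 to 0.29, adjusted p = 0.547) and -0.19 in ZH11-KO1 (-0.40 to 0.01, adjusted p = 0.222). Os07g0512100 had 0.06 in ZH11-OE1 (95% interval -0.26 to 0.37, adjusted p = 0.825) and 0.22 in ZH11-KO1 (-0.10 to 0.54, adjusted p = 0.367), at means of 0.95 FPKM in ZH11-OE1, 1.2 FPKM in ZH11-KO1 and 0.88 FPKM in ZH11.

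Over the whole stretch, more neighbours passed the threshold in ZH11-OE1 than in ZH11-KO1, and most of those in ZH11-OE1 were lower than in ZH11. Both also held over all rows tested. In ZH11-OE1 against ZH11, 16 of the 59 tested neighbours were called (27.1%), where 13.8% of all rows tested were called. Of these, 5 rose (3.76% of all rows were called higher) and 11 fell (10% of all rows were called lower). The split moved with the scaling, to 7 higher and 8 lower after median-of-ratios rescaling and 7 and 7 after quantile normalization. The calls over all rows shifted the same way, with 5.61% higher and 8.11% lower after median-of-ratios rescaling and 5.31% and 7.87% after quantile normalization. In ZH11-KO1 against ZH11, 5 of 59 were called (8.47%), close to the 8.6% of all rows, with 3 that rose (5% of all rows) and 2 that fell (3.59% of all rows). The replicate numbers of ZH11-KO1 and ZH11 were taken to pair their libraries, an assumption read from correlations in these same data. With the replicate block in a fit of these 2 groups 7 were called (12.4% of all rows), 5 higher (7.89% of all rows) and 2 lower (4.53% of all rows). The 2 gained were Os07g0510500 (adjusted p = 0.0359 with the block and 0.0864 without) and Os07g0516801 (0.0242 with and 0.0673 without). The median log2 fold change of the 59 neighbours was 0.03 in ZH11-OE1, beside -0.04 over all rows tested without the pair, and 0.0003 in ZH11-KO1, beside -0.02. Both comparisons share the ZH11 libraries, and Os07g0511100, which reached the minimum mean through the lines alone, is 1 of the higher calls in each.

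Leaving out single libraries lowered most of these counts, and in most cases those over all rows as well, and raised a few. The 5 higher calls in ZH11-OE1 became 1 without ZH11-OE1 replicate 1, 1 without replicate 2, 2 without replicate 3, 1 without ZH11 replicate 1, and 3 without ZH11-KO1 replicate 2 or replicate 3. The 11 lower calls became 3, 4 and 5 without ZH11-OE1 replicates 1, 2 and 3, 3 without ZH11 replicate 1, 5 without ZH11 replicate 2, and 6 without ZH11-KO1 replicate 2. Rises were seen too, to 6 higher calls without ZH11-KO1 replicate 1 and to 13 lower calls without ZH11 replicate 3. In both directions together the neighbours called in ZH11-OE1 against ZH11 came to 6.78% without ZH11-OE1 replicate 1, 8.47% without replicate 2 and 11.9% without replicate 3, beside 8.81%, 5% and 8.06% of all rows. Without ZH11 replicate 1 they came to 6.78%, beside 5.19% of all rows. The excess of called neighbours over all rows was thus absent without ZH11-OE1 replicate 1. It was smaller without ZH11-OE1 replicate 2 or 3, ZH11 replicate 1 or 2, or ZH11-KO1 replicate 2 or 3. It stayed without ZH11 replicate 3 (28.8%, beside 14.9% of all rows) and without ZH11-KO1 replicate 1 (23.7%, beside 13.5%). Without ZH11 replicate 2 the shares were 15.3% and 11.5%. Without ZH11-KO1 replicate 2 they were 15.3% and 10.5%, and without ZH11-KO1 replicate 3 they were 18.6% and 13.5%. In ZH11-KO1, the 3 higher calls became 1 without ZH11-KO1 replicate 2 and 5 without ZH11 replicate 1. The 2 lower calls in ZH11-KO1 became 0 without ZH11-KO1 replicate 2, and 1 without ZH11-KO1 replicate 3, ZH11 replicate 1, ZH11 replicate 3 or ZH11-OE1 replicate 1. Over all rows, the calls in ZH11-KO1 against ZH11 fell to 1.91% without ZH11-KO1 replicate 2 and 2.58% without ZH11 replicate 3.

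The libraries of the compared groups did not overlap for 27 of 59 neighbours in ZH11-OE1 against ZH11 (45.8%, against 33.8% of all rows) and for 19 of 59 in ZH11-KO1 against ZH11 (32.2%, against 30.2% of all rows). The called loci were spread over both sides of the pair. In ZH11-OE1, 7 of 27 neighbours with lower identifiers (25.9%) and 9 of 32 with higher identifiers (28.1%) were called, beside 8 of 36 (22.2%) in the adjoining stretch of identifiers below, 5 of 35 (14.3%) in the one above, and 208 of 1575 (13.2%) in the other rows of chromosome 7. In ZH11-KO1 the same shares were 3 of 27 (11.1%), 2 of 32 (6.25%), 6 of 36 (16.7%), 3 of 35 (8.57%) and 137 of 1575 (8.7%). These shares are descriptions, and their differences were not tested.

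**Figure D2:**
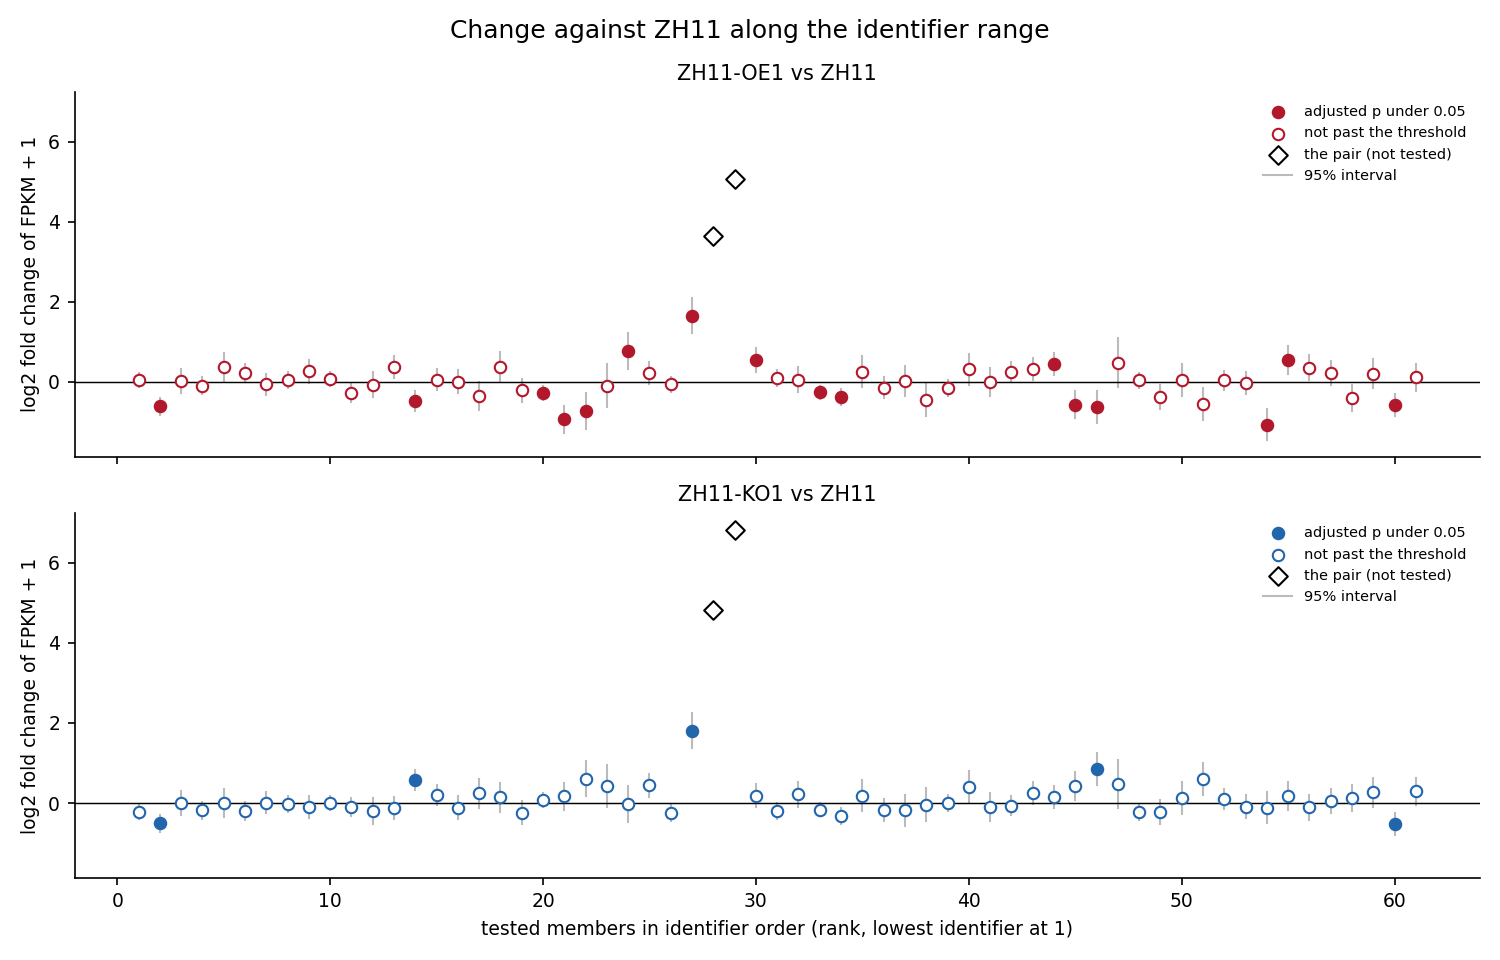
Log2 fold change of FPKM + 1 for the 61 tested members in identifier order, for ZH11-OE1 against ZH11 (upper panel) and ZH11-KO1 against ZH11 (lower panel); filled circles passed an adjusted p of 0.05, open circles did not, grey lines are 95% intervals, and diamonds are the pair, which was not tested. Os07g0511100, directly left of the pair, stands at 1.66 and 1.80, while the other neighbours lie between -1.07 and 0.84.

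**Figure D3:**
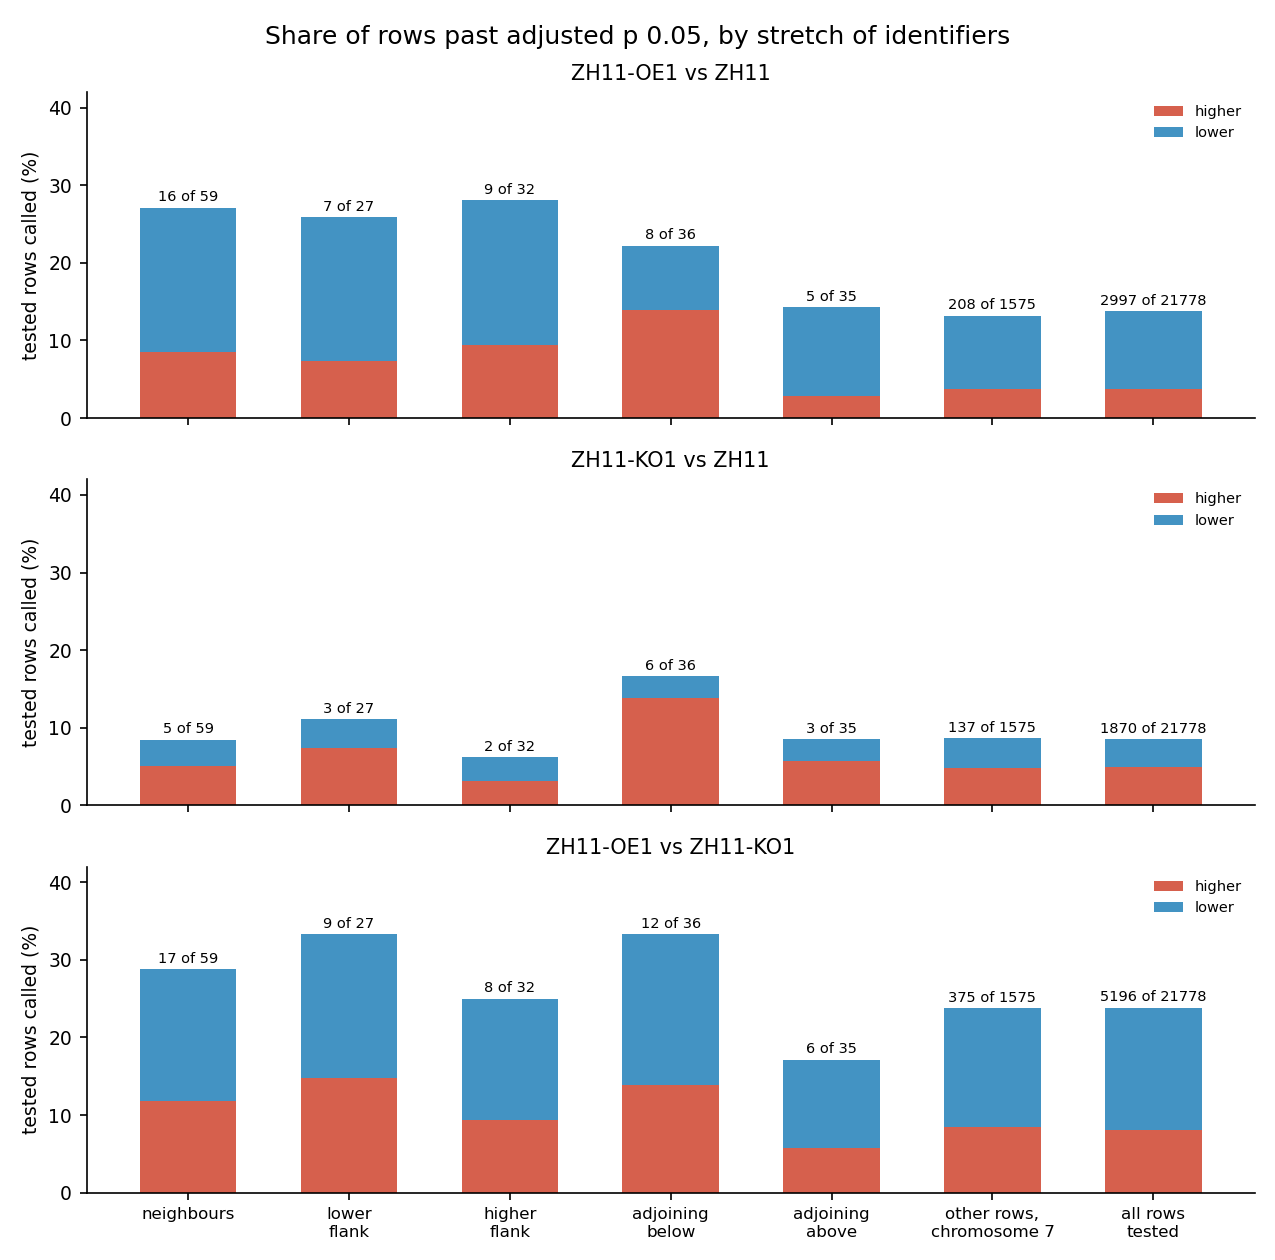
Percent of tested rows called at an adjusted p under 0.05, split into higher and lower, for the 59 neighbours, their 2 flanks, the adjoining stretches, the rest of chromosome 7 and all rows, the pair left out; the 3 panels are the 3 comparisons and the numbers are called rows of tested rows. The neighbours stand at 27.1% in ZH11-OE1 against ZH11, 8.47% in ZH11-KO1 against ZH11 and 28.8% between the lines, beside 13.8%, 8.59% and 23.9% of all rows.

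Apart from Os07g0511100, 2 neighbours passed with the same sign in ZH11-OE1 and in ZH11-KO1, and both fell. With voom on the recovered reads Os07g0513000, given below, also fell in ZH11-OE1 (adjusted p = 0.02) and in ZH11-KO1 (adjusted p = 0.0432). The share of all rows with the same combination of calls was not counted, here or for the combinations below. Such counts therefore describe the neighbours only. Os07g0506600, near the lower end of the stretch, had 27.4, 31.4 and 27.8 FPKM in ZH11-OE1 and 33.4, 30.8 and 29.8 FPKM in ZH11-KO1, against 50.1, 41.0 and 43.3 FPKM in ZH11. All libraries of both lines were below all of ZH11, with a mean of 64.5% of that of ZH11 in ZH11-OE1 and 69.9% in ZH11-KO1. Its log2 change was -0.61 ± 0.097 in ZH11-OE1 (SE, adjusted p = 0.00498) and -0.50 ± 0.097 in ZH11-KO1 (SE, adjusted p = 0.0149), the second lost without ZH11-KO1 replicate 2 (adjusted p = 0.0693). Os07g0518500, near the upper end, had 22.2, 25.3 and 21.3 FPKM in ZH11-OE1 and 26.4, 21.3 and 24.2 FPKM in ZH11-KO1, against 38.7, 28.7 and 37.4 FPKM in ZH11. Here too the lines stayed below every ZH11 library, of which replicate 2 was the lowest. Its log2 fold change was -0.58 ± 0.127 in ZH11-OE1 (SE, adjusted p = 0.0168) and -0.52 ± 0.127 in ZH11-KO1 (SE, adjusted p = 0.0341). The first was lost without ZH11-OE1 replicate 1, ZH11-OE1 replicate 3 or ZH11 replicate 1 (adjusted p = 0.0509 to 0.0669), and the second without ZH11-KO1 replicate 2 or 3, ZH11 replicate 1 or 3, or ZH11-OE1 replicate 1 (adjusted p = 0.0516 to 0.137).

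In contrast, 2 neighbours fell in ZH11-OE1 and rose in ZH11-KO1 without the replicate block. With the block Os07g0510500, given below, also rose in ZH11-KO1 (adjusted p = 0.0359). Os07g0508700, a short row of 312 bases and the third highest of the stretch, had 55.3, 50.9 and 63.5 FPKM in ZH11-OE1 and 126, 117 and 113 FPKM in ZH11-KO1, against 81.4, 88.0 and 68.4 FPKM in ZH11. The 3 genotypes did not overlap. The change on the log2 scale against ZH11 was -0.48 ± 0.112 in ZH11-OE1 (SE, adjusted p = 0.0211) and 0.58 ± 0.112 in ZH11-KO1 (SE, adjusted p = 0.0146), and that of ZH11-OE1 over ZH11-KO1 was -1.06 ± 0.112 (SE, adjusted p = 0.000422). The first was lost without ZH11-OE1 replicate 1 or 2 or ZH11 replicate 1 or 2 (adjusted p = 0.0581 to 0.0842) and the second without ZH11-KO1 replicate 2 (adjusted p = 0.0596), whereas the difference between the lines held in every alternative.

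Os07g0516300 had 11.0, 11.3 and 17.3 FPKM in ZH11-OE1 and 37.1, 39.8 and 35.3 FPKM in ZH11-KO1, against 21.8, 24.5 and 15.8 FPKM in ZH11. ZH11-KO1 stood above all other libraries, while ZH11-OE1 replicate 3 overlapped ZH11 replicate 3. On the log2 scale its change against ZH11 was -0.62 ± 0.182 in ZH11-OE1 (SE, adjusted p = 0.0477) and 0.84 ± 0.182 in ZH11-KO1 (SE, adjusted p = 0.0221). Between the lines it was -1.46 ± 0.182 (SE, adjusted p = 0.000932), a call that held in every alternative. The call in ZH11-OE1 was lost without 7 of the 9 libraries, all but ZH11-OE1 replicate 3 and ZH11 replicate 3 (adjusted p = 0.057 to 0.154). That in ZH11-KO1 was lost without ZH11-KO1 replicate 1 or 2 or ZH11 replicate 3 (adjusted p = 0.0503 to 0.0935).

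The loci that rose in ZH11-OE1 and did not pass in ZH11-KO1 were Os07g0511500, described above, and 3 more. Os07g0510833, a row of 303 bases, had 18.6, 20.7 and 18.3 FPKM in ZH11-OE1 and 9.68, 14.0 and 8.82 FPKM in ZH11-KO1, against 7.78, 11.8 and 13.8 FPKM in ZH11. The ZH11-OE1 libraries were above all others. Its log2 change was 0.77 ± 0.2 in ZH11-OE1 (SE, adjusted p = 0.0312), and -0.03 in ZH11-KO1 (95% interval -0.47 to 0.42, adjusted p = 0.954). The call in ZH11-OE1 was lost without any 1 of the ZH11-OE1 libraries or without ZH11 replicate 1 (adjusted p = 0.0668 to 0.104).

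Os07g0516050 had 3.28, 2.69 and 3.18 FPKM in ZH11-OE1 and 2.00, 2.42 and 2.48 FPKM in ZH11-KO1, against 2.01, 1.81 and 2.11 FPKM in ZH11, with a log2 change of 0.44 ± 0.126 in ZH11-OE1 (SE, adjusted p = 0.043). Os07g0517300 had 3.41, 2.90 and 3.15 FPKM in ZH11-OE1 and 1.63, 2.63 and 2.51 FPKM in ZH11-KO1, against 1.68, 2.30 and 1.63 FPKM in ZH11, with a log2 change of 0.54 ± 0.159 in ZH11-OE1 (SE, adjusted p = 0.0475). For both, the ZH11-OE1 libraries lay above all others by a small margin. Os07g0516050 lost its call without any library but ZH11-KO1 replicate 1 (adjusted p = 0.0525 to 0.108), and Os07g0517300 without any but ZH11-KO1 replicate 1 and ZH11 replicate 2 (adjusted p = 0.0546 to 0.147).

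Without the replicate block, 7 loci fell in ZH11-OE1 and did not pass in ZH11-KO1. They included the lowest mean relative to ZH11 among the tested neighbours, that of Os07g0510500 at 39.0%. Os07g0517100 had 3.93, 3.07 and 5.43 FPKM in ZH11-OE1 and 8.81, 10.1 and 7.56 FPKM in ZH11-KO1, against 11.2, 9.05 and 8.62 FPKM in ZH11. The ZH11-OE1 mean was 43.0% of that of ZH11, with no overlap, and ZH11-KO1 overlapped ZH11. Its log2 fold change was -1.07 ± 0.175 in ZH11-OE1 (SE, adjusted p = 0.00578), the only call of a neighbour besides Os07g0511100 that passed in every alternative that tested it in a comparison with ZH11. In ZH11-KO1 it was -0.11 (95% interval -0.50 to 0.27, adjusted p = 0.731).

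Os07g0510400 and Os07g0510500 are listed consecutively among the tested loci and fell together in ZH11-OE1. Os07g0510400 had 22.1, 17.5 and 19.5 FPKM in ZH11-OE1 and 51.4, 43.0 and 37.2 FPKM in ZH11-KO1, against 48.0, 34.6 and 34.4 FPKM in ZH11. Its mean in ZH11-OE1 was 50.5% of that in ZH11, and its log2 fold change was -0.94 ± 0.154 in ZH11-OE1 (SE, adjusted p = 0.00577) and 0.17 in ZH11-KO1 (95% interval -0.17 to 0.51, adjusted p = 0.527). Os07g0510500 had 0.84, 0.84 and 0.80 FPKM in ZH11-OE1 and 4.6, 3.2 and 3.2 FPKM in ZH11-KO1, against 3.1, 1.9 and 1.4 FPKM in ZH11. The 3 genotypes did not overlap at this locus. The change on the log2 scale was -0.73 ± 0.201 in ZH11-OE1 (SE, adjusted p = 0.0378) and 0.61 ± 0.201 in ZH11-KO1 (SE, adjusted p = 0.0864 without the replicate block). With the block the rise in ZH11-KO1 passed (adjusted p = 0.0359). The call in ZH11-OE1 was lost without any 1 of the ZH11-OE1 libraries, ZH11 replicate 1 or 2, or ZH11-KO1 replicate 2 (adjusted p = 0.0547 to 0.121).

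Os07g0510200, the tested locus before these, had 39.8, 34.6 and 38.2 FPKM in ZH11-OE1 and 49.7, 48.6 and 47.5 FPKM in ZH11-KO1, against 48.8, 45.2 and 43.8 FPKM in ZH11. Its log2 fold change of -0.28 ± 0.081 in ZH11-OE1 (SE, adjusted p = 0.0432) was lost without any library but ZH11 replicate 3 (adjusted p = 0.0516 to 0.147). Os07g0516200, which stands next to Os07g0516300 among the tested loci, had 10.8, 8.35 and 10.3 FPKM in ZH11-OE1 and 16.4, 21.6 and 23.7 FPKM in ZH11-KO1, against 16.6, 16.1 and 12.4 FPKM in ZH11. On the log2 scale its change was -0.57 ± 0.157 in ZH11-OE1 (SE, adjusted p = 0.0394) and 0.42 in ZH11-KO1 (95% interval 0.07 to 0.77, adjusted p = 0.124). The first was lost without any 1 of the ZH11-OE1 libraries, ZH11 replicate 1 or 2, or ZH11-KO1 replicate 2 (adjusted p = 0.0581 to 0.137).

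Os07g0512200 was the highest locus of the stretch, with 252, 235 and 250 FPKM in ZH11-OE1 and 259, 265 and 263 FPKM in ZH11-KO1, against 305, 287 and 291 FPKM in ZH11. Although the 3 genotypes did not overlap, its fall was small, at a mean in ZH11-OE1 of 83.5% of that in ZH11 and a log2 change of -0.26 ± 0.0758 (SE, adjusted p = 0.047). The call was lost when any 1 of the 9 libraries was left out (adjusted p = 0.0575 to 0.149). In ZH11-KO1 its log2 fold change was -0.16 (95% interval -0.33 to 0.004, adjusted p = 0.206). Os07g0513000 had 61.2, 60.6 and 64.2 FPKM in ZH11-OE1 and 64.1, 66.4 and 61.6 FPKM in ZH11-KO1, against 91.9, 77.0 and 73.5 FPKM in ZH11. Both lines were below every ZH11 library, but only the log2 fold change of -0.37 ± 0.0916 in ZH11-OE1 passed (SE, adjusted p = 0.026), beside -0.33 ± 0.0916 in ZH11-KO1 (SE, adjusted p = 0.0537). With voom on the recovered reads the fall in ZH11-KO1 passed too (adjusted p = 0.0432). The call in ZH11-OE1 was lost without any 1 of the ZH11-OE1 libraries or ZH11 replicate 1 (adjusted p = 0.053 to 0.0881).

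**Figure D4:**
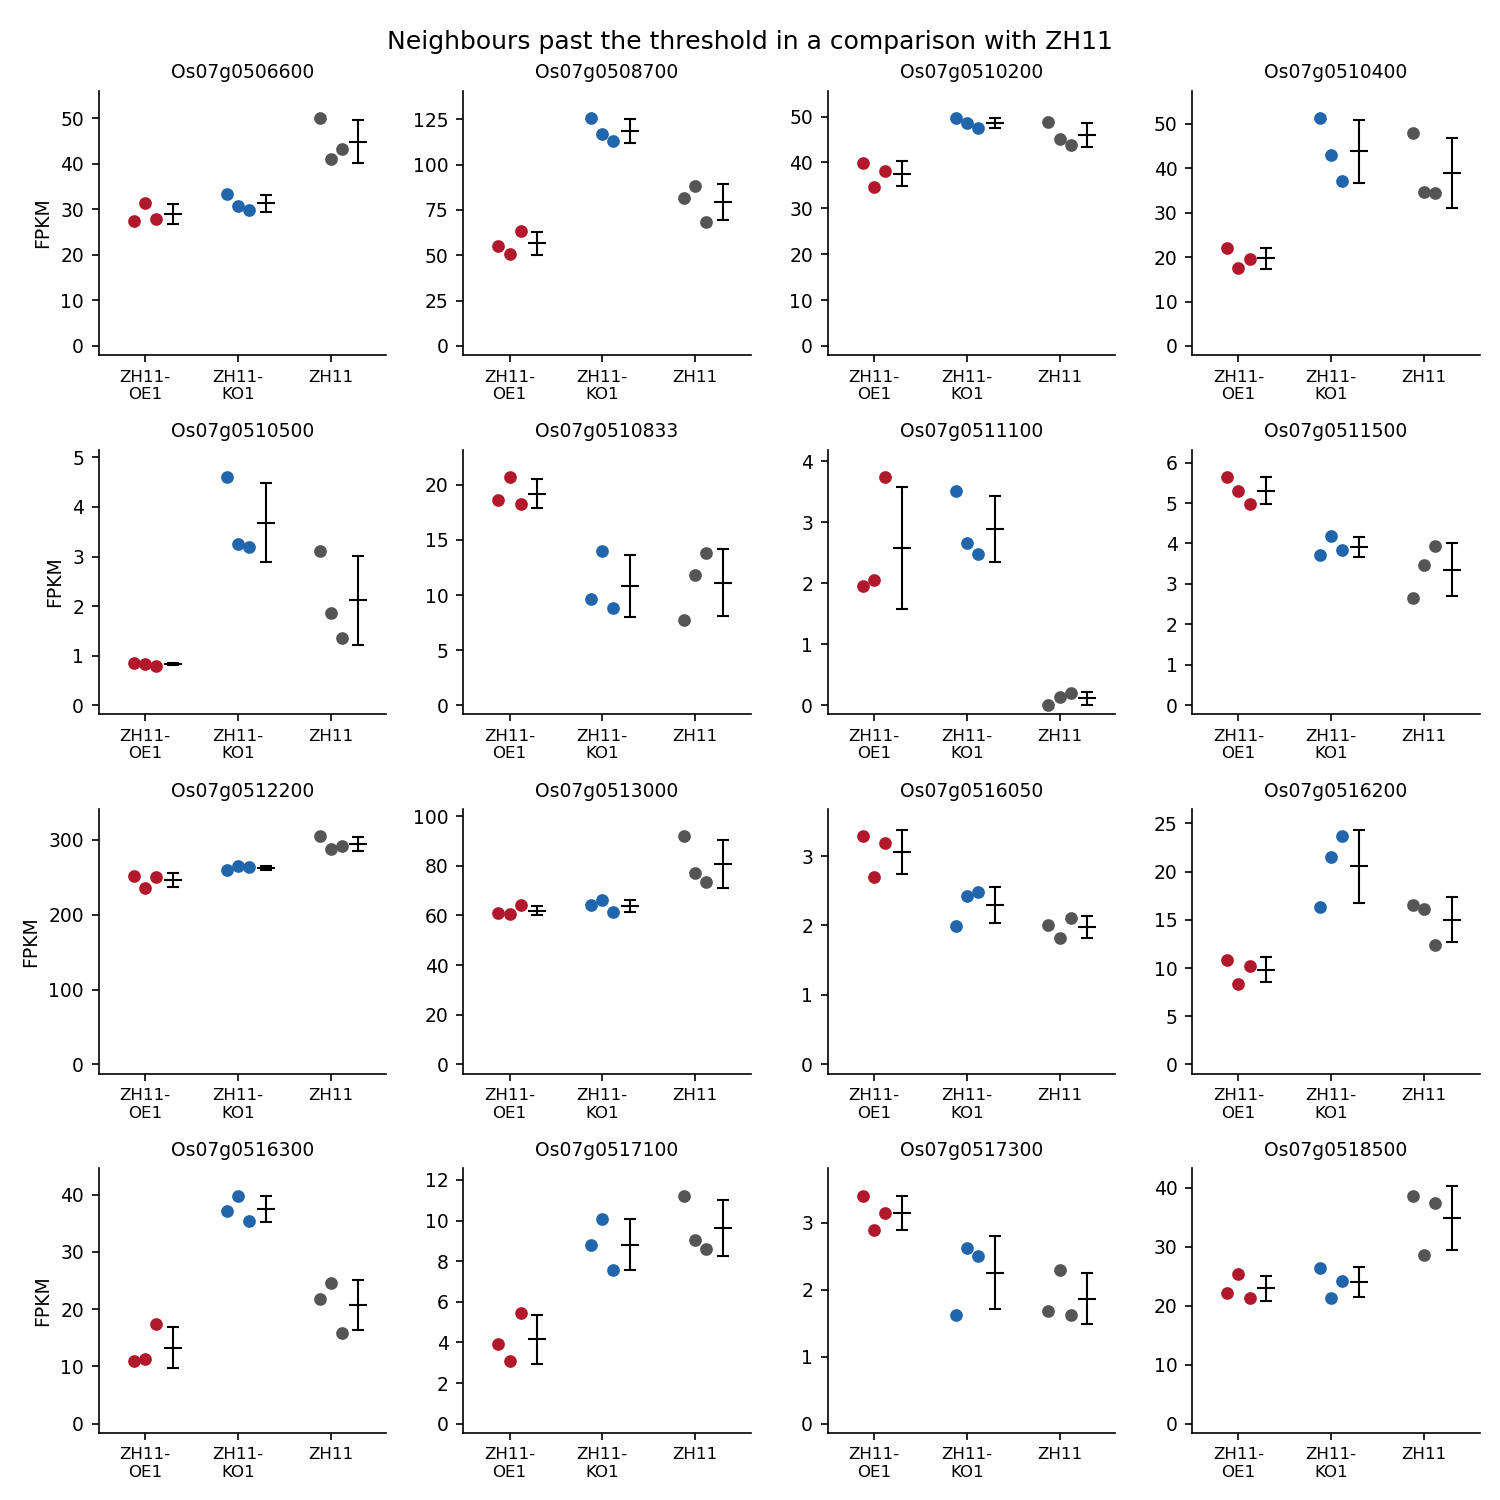
FPKM of the 16 neighbours called in at least 1 comparison with ZH11 without the replicate block, in identifier order. Each panel has ZH11-OE1, ZH11-KO1 and ZH11 from left to right. Points are libraries, and the bar beside them is the mean with its SD (n = 3). Os07g0511100 is the one panel where ZH11 lies near 0, Os07g0506600 and Os07g0518500 are low in both lines, and Os07g0508700 and Os07g0516300 are low in ZH11-OE1 and high in ZH11-KO1.

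Between the lines, 17 of the 59 neighbours were called (28.8%, against 23.9% of all rows), of which 7 were higher (8.09% of all rows) and 10 lower (15.8% of all rows) in ZH11-OE1 than in ZH11-KO1. The libraries did not overlap for 29 of 59 (49.2%, against 43.9% of all rows), and the median log2 fold change was 0.003, beside -0.03 over all rows without the pair. Of these 17, 8 had also passed in a comparison with ZH11: Os07g0510833 was higher in ZH11-OE1, with a log2 fold change over ZH11-KO1 of 0.79, and the other 7 were lower. Among the 7, Os07g0508700, Os07g0510400, Os07g0510500 and Os07g0516300 had log2 fold changes of -1.06, -1.11, -1.35 and -1.46, and their calls held in every alternative that tested them. Os07g0510200, Os07g0516200 and Os07g0517100 had -0.37, -0.99 and -0.95. The calls of Os07g0510200 and Os07g0510833 were lost without ZH11-OE1 replicate 2 (adjusted p = 0.0509 and 0.0725), and that of Os07g0510833 also without ZH11-KO1 replicate 1 (adjusted p = 0.0636).

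The other 9 passed between the lines and, without the replicate block, in neither comparison with ZH11. The 3 with the largest differences were all lower in ZH11-OE1. Os07g0516801 had means of 2.35 ± 0.581 FPKM in ZH11-OE1 and 6.43 ± 1.02 FPKM in ZH11-KO1 (SD, n = 3 each), a log2 change of -1.15 ± 0.182 (SE, adjusted p = 0.00268) that held in every alternative that tested it. With the block it also passed in ZH11-KO1 against ZH11 (adjusted p = 0.0242). Os07g0509700 had 8.04 ± 1.58 FPKM in ZH11-OE1 and 12.6 ± 1.98 FPKM in ZH11-KO1, and a log2 change of -0.59 ± 0.159 (SE, adjusted p = 0.0232), lost without ZH11-OE1 replicate 1 or 2 or ZH11-KO1 replicate 2 or 3 (adjusted p = 0.0514 to 0.0922). Os07g0518100 had 1.30 ± 0.190 FPKM in ZH11-OE1 and 2.30 ± 0.511 FPKM in ZH11-KO1, and a log2 change of -0.51 ± 0.147 (SE, adjusted p = 0.0306), lost without any 1 of the ZH11-OE1 libraries or ZH11-KO1 replicate 1 (adjusted p = 0.0544 to 0.114). The remaining 6, Os07g0506000, Os07g0507300, Os07g0508500, Os07g0511900, Os07g0516500 and Os07g0517400, were higher in ZH11-OE1 by log2 fold changes of 0.28, 0.42, 0.49, 0.28, 0.27 and 0.46. Each of these 6 calls was lost on leaving out at least 2 of the libraries, 1 at a time (adjusted p = 0.0503 to 0.151), and Os07g0517400 reached the minimum mean through ZH11-OE1 alone, with means of 1.51 FPKM in ZH11-OE1, 0.83 FPKM in ZH11-KO1 and 0.976 FPKM in ZH11. The count of 7 higher neighbours became 0, 3 and 4 without ZH11-KO1 replicates 1, 2 and 3, 1 and 2 without ZH11-OE1 replicates 2 and 3, and 4 without ZH11 replicate 2. Over all rows, 8.09% were higher, and this became 3.71%, 3.11% and 7.26% without ZH11-KO1 replicates 1, 2 and 3, 2.26% and 4.58% without ZH11-OE1 replicates 2 and 3, and 7.38% without ZH11 replicate 2.

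The other 34 tested neighbours passed in no comparison, a share that was not counted over all rows. Among them, voom on the recovered reads called Os07g0510900 higher in ZH11-KO1 than in ZH11 (adjusted p = 0.0444). It also called Os07g0507700 higher in ZH11-OE1 than in ZH11-KO1 (adjusted p = 0.0475). Levels across the 61 tested members ran from a mean of 1.01 to 268 FPKM, with a median of 9.49 FPKM, beside a median of 10.8 FPKM over all rows tested. The 22 neighbours with reads but a mean below 1 FPKM never exceeded 1.43 FPKM or 58 reads in a library. Among them the libraries did not overlap for 3 loci higher in ZH11-KO1 than in ZH11, Os07g0511201, Os07g0508101 and Os07g0513100 (6.28% of all rows with reads and a mean below 1 FPKM), and for 1 lower in ZH11-OE1 than in ZH11 (8.7% of those rows). That locus was Os07g0512000, with 2, 2 and 1 reads in ZH11-OE1 and 2, 6 and 1 reads in ZH11-KO1, against 5, 6 and 11 reads in ZH11. These 4 were singled out after their values were seen.

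At the ends of the stretch, the first row inside, Os07g0506000, had means of 75.8 FPKM in ZH11-OE1, 62.1 FPKM in ZH11-KO1 and 73.0 FPKM in ZH11, and the row just outside, Os07g0505300, was at 0 in every library. At the upper end the last row inside, Os07g0519800, was at 0 in every library. The row just outside, Os07g0520100, had means of 12.4 FPKM in ZH11-OE1, 10.6 FPKM in ZH11-KO1 and 9.04 FPKM in ZH11.

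Across the 21779 other rows tested, the profile most like that of Os07g0511400 over the 9 libraries was that of its partner Os07g0511301, with a Pearson r of 0.993 on log2(FPKM + 1). It was followed by Os05g0527700, Os03g0629800, Os01g0262401 and Os01g0537250, on 3 other chromosomes, with r of 0.992, 0.992, 0.990 and 0.990. Os07g0511100 stood at rank 26 with r of 0.953, and the next member, Os07g0510900, at rank 317 with r of 0.835. These are descriptions: the 9 points of every r are the same libraries in 3 genotypes, so a row that is low in ZH11 and higher in ZH11-KO1 than in ZH11-OE1 scores high by that order alone.

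Rows with a step of at least 3 log2 units above ZH11 in both lines, as at the pair, numbered 10 in the whole table. Of these, 3 lie on chromosome 1, 4 on chromosome 3 and 3 on chromosome 7, and the third one on chromosome 7, Os07g0153150, lies outside the stretch. It had means of 64.3 ± 7.98 FPKM in ZH11-OE1 and 48.0 ± 4.27 FPKM in ZH11-KO1, against 0.580 ± 0.205 FPKM in ZH11 (SD, n = 3 each). No row showed the opposite step of 3 log2 units below ZH11 in both lines. The step of Os07g0511100, at 1.66 and 1.80, did not reach that size on this scale.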

How the data were processed

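RNA-seq of young panicles was analysed for ZH11-OE1, ZH11-KO1 and ZH11 (3 libraries each). The authors mapped the reads with HISAT2 to IRGSP-1.0, counted them per gene with featureCounts, tested counts with DESeq2, and deposited FPKM values per gene and library, which are the values used here. How FPKM were computed, the annotation release and whether counting used strand are not given in the sources used here; rows that overlap on opposite strands cannot be told apart. Since FPKM are not counts, limma (version 3.58.1, R version 4.3.3) was fitted to log2(FPKM + 1) of all 9 libraries, with 1 mean for each group, a trend on the mean level and two-sided tests, over 21780 rows with a mean of at least 1 FPKM, with Benjamini-Hochberg adjustment over all of them.

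FPKM steps gave whole reads for 32208 of 32208 rows above 0 (100%, tolerance 0.0001 read), and the reads recovered summed to 99.9% of the library size behind the FPKM. Smallest lengths that give whole reads were taken. On these reads voom of limma, an alternative chosen after seeing the data, called 3252 rows in ZH11-OE1 vs ZH11 and 2077 in ZH11-KO1 vs ZH11. Exact intervals of read ratios are at 95%. Tables were handled with Python 3.11.15, numpy 2.4.6, pandas 2.3.3 and scipy 1.17.1, and plots drawn with matplotlib 3.10.9. The fit was tested on simulated data.

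The members and lists were chosen with earlier results of these data known. Named were the pair, every member called in a comparison (per library where called against ZH11, and the 3 largest of the rest), the 3 tested members next below and above the pair, the 3 highest, the rows at both ends, and the 5 rows most correlated with Os07g0511400. Marker identifiers came from background knowledge. A reference table of another assembly held 1 identifier of the table and 0 of the members, so no names, coordinates or sequences are given.

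Replicate numbers were checked by correlating deviations of libraries from their group means across rows. Same-numbered ZH11-KO1 and ZH11 libraries had r of 0.234 to 0.316 and other pairs at most -0.0218, so these were taken as paired. Deviations within a group cancel, so high r of same-numbered pairs lowers that of the others, which adds no support. Same-numbered ZH11-OE1 and ZH11 libraries had -0.279 to 0.0234, and ZH11-OE1 and ZH11-KO1 -0.0649 to 0.0147, so they were not. Libraries with different numbers reached similar values, with r of 0.274 for ZH11-OE1 replicate 3 and ZH11 replicate 2. The pairing was thus an assumption read from these same data. The sources name no shared batch or day. Alternatives were quantile normalization, median-of-ratios rescaling, a pseudocount of 0.1 FPKM, a filter at 5 FPKM or none, the replicate block, fits of 2 groups, a fit without the trend, voom, a required log2 change of 1 in size, and leaving out each library.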

Additional observations from a re-analysis of the deposited data

Results flagged for a closer look

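In 19 members the response of the 2 lines differed by the test of ZH11-OE1 against ZH11-KO1, which share ZH11 as their wild type. Both members of the pair were among them, with log2 fold changes of ZH11-OE1 over ZH11-KO1 of -1.75 for Os07g0511400 and -1.18 for Os07g0511301. Of the 59 tested neighbours, 17 were called (28.8%), against 23.9% of all rows tested. Of these, 10 were lower in ZH11-OE1 (15.8% of all rows): Os07g0516300 (-1.46), Os07g0510500 (-1.35), Os07g0516801 (-1.15), Os07g0510400 (-1.11), Os07g0508700 (-1.06), Os07g0516200 (-0.986), Os07g0517100 (-0.951), Os07g0509700 (-0.595), Os07g0518100 (-0.51) and Os07g0510200 (-0.365). The other 7 were higher in ZH11-OE1 (8.09% of all rows): Os07g0510833 (0.794), Os07g0508500 (0.489), Os07g0517400 (0.459), Os07g0507300 (0.42), Os07g0506000 (0.283), Os07g0511900 (0.281) and Os07g0516500 (0.267).

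Os07g0511201, which was too low to be tested, had a signal in 1 line only, with 10 reads summed over the 3 ZH11-KO1 libraries against 0 in ZH11, and 0 also in ZH11-OE1. Its difference between genotypes was not tested.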

How the results depend on the processing

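No neighbour's call reversed in any alternative. Os07g0511100, tested in 19 of 20 alternatives since its mean is below 5 FPKM, passed in those 19 in both comparisons with ZH11, and no other neighbour did so in both. It reached the minimum mean of 1 FPKM through the lines alone, and the alternatives reuse the same libraries, so they are not independent support. In ZH11-OE1 vs ZH11 (5 higher and 11 lower), the counts were 2 and 7 with no filter, 1 and 10 with a minimum mean of 5 FPKM, 7 and 7 with quantile normalization, 4 and 6 in the fit of 2 groups, and 1 and 1 at a minimum absolute log2 fold change of 1. At the 5 FPKM minimum no tested call was lost: 4 of the 5 higher loci and Os07g0510500 were below it and untested. Shares over all rows moved too, from 13.8% called to 6.81% with no filter, 16.3% at 5 FPKM, 13.2% with quantile normalization, 11.2% in the fit of 2 groups and 2.69% at the minimum fold change. In ZH11-KO1 vs ZH11 (3 and 2), they were 4 and 1 with no filter, 3 and 1 in the fit of 2 groups, 3 and 1 without the trend, and 1 and 0 at the minimum fold change, beside 8.6% of all rows called that became 3.73%, 4.41%, 6.88% and 1.59%. Between the lines (7 and 10), they were 12 and 9 with quantile normalization and 0 and 5 at the minimum fold change, beside 23.9% of all rows that became 26.5% and 2.62%. Leaving out 1 library at a time gave 1 to 6 higher and 3 to 13 lower neighbours in ZH11-OE1 vs ZH11, 1 to 5 and 0 to 2 in ZH11-KO1 vs ZH11, and 0 to 9 and 7 to 10 between the lines. The share of all rows called then ran from 5% to 14.9%, 1.91% to 9.15% and 10.7% to 25.9%, in the same order. Voom on the recovered reads gave 4 and 11, 4 and 3, and 9 and 10, beside 14.9%, 9.54% and 25.4% of all rows.

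The replicate block in a fit of 2 groups gave 5 higher and 2 lower neighbours in ZH11-KO1 vs ZH11, where the numbers were taken as pairs, and in a fit of all 9 libraries 3 and 2. Of all rows, 12.4% and 8.3% were then called. Where the libraries share only a number, the block gave 1 and 3 (2 groups) or 3 and 8 (all 9 libraries) in ZH11-OE1 vs ZH11, beside 5.72% or 14.6% of all rows. Between the lines it gave 4 and 9 or 6 and 10, beside 21.8% or 24.7% of all rows. Depth limits the low rows: 0 reads allow 3 reads, and the 31 untested neighbours carry no test.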

Other observations

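Among the rows outside the stretch with the same step in both lines, Os03g0115800 differed most between libraries of 1 group, with 2.53, 22.5 and 85.9 FPKM in the ZH11-OE1 libraries and 351, 300 and 290 FPKM in the ZH11-KO1 libraries, against 0.0457, 0.0462 and 0 FPKM in the ZH11 libraries. Os07g0511400, with 80.3, 89.7 and 72.5 FPKM in the ZH11-OE1 libraries, showed no such spread. Os03g0115800 was singled out after its values were seen.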
